A study of Mus musculus with 149 samples.

Results

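Lungs of ovalbumin-sensitized mice (OVA, an egg white protein used as a model allergen) were compared 24 h after a challenge with 1500 ng of thymic stromal lymphopoietin (TSLP) or with buffer alone. Arrays were chosen by their labels: 7 arrays of OVA-sensitized animals given 1500 ng TSLP and 8 of OVA-sensitized animals given buffer (0.1% MSA, an abbreviation that the labels do not expand), 15 arrays beside 134 others in the series. All animals had the BALB/c background, the tissue was lung, and each array held the RNA of 1 animal. The labels give no sex, age, allergen dose, hour of day or route of challenge. The series held 20 groups, made of naive or OVA-sensitized animals, 5 challenges and 2 times. Also used were OVA-sensitized animals at 24 h after 150 ng TSLP (8 arrays), 500 ng TSLP (7 arrays) or saline (7 arrays), naive animals at 24 h after 1500 ng TSLP (8 arrays) or buffer (7 arrays), and OVA-sensitized animals at 6 h after 1500 ng TSLP (8 arrays) or buffer (8 arrays).

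TSLP is a cytokine made by epithelial cells of the airway, gut and skin and released on injury or contact with allergens. It binds a receptor made of its own chain (encoded by Crlf2) and the interleukin-7 receptor alpha chain (Il7r), which signals through JAK kinases and STAT5. In the lung it is known for priming dendritic cells to draw in type 2 helper T cells, and for acting on basophils, mast cells and group 2 innate lymphoid cells. Of the type 2 cytokines that these cells make, IL-5 sustains eosinophils, and IL-4 and IL-13 act on the epithelium through STAT6, where they turn airway cells into mucus-making goblet cells.

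The promoters of the 15 genes with the largest rises, described below, were searched for the STAT6 motif, because goblet cell genes were among them. The motif was TTC and GAA with any 4 bases between them, which reads the same on both strands. RefSeq windows of 300 bases (250 before and 50 after a gene's start, build GRCm38.p6) were found for 12 of these genes. Of their 15 windows 1 held the motif, against 6.95% of all 32851 windows. It was that of Capn9, which encodes a calpain protease of mucous surface cells of the stomach and gut, at chr8:124575861-124576160 on the plus strand. The motif, in capitals, begins at base 107 of the window.
Capn9: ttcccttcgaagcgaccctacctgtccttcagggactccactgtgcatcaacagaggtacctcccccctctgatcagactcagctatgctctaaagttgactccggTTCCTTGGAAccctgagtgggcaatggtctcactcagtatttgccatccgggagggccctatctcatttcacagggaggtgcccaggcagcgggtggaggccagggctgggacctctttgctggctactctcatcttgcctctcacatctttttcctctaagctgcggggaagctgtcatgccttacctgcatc
A match of letters is a description of this window and not a binding site.

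Values are RMA levels on the log2 scale, so a difference of 1 is a doubling. Each gene was represented by its brightest probe set, 13494 genes were tested, and a gene was called at an adjusted p under 0.05 in a linear model over all arrays of the series. Differences are 1500 ng TSLP minus buffer, with their standard error (SE). The lung markers Scgb1a1, Sftpc and Ager had group means of 14 or more in both groups. The 3′ minus 5′ level of beta-actin, an index of RNA quality, was 1.60 ± 0.23 in the TSLP lungs and 1.28 ± 0.10 in the buffer lungs (SD, n = 7 and 8). The groups did not overlap (1.44 to 1.99 against 1.12 to 1.39), and the difference of 0.32 (SE 0.09) had an exact two-sided permutation p of 0.000311.

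Single animals stood apart. Animal 1 of the TSLP group was the lowest of the 7 in 51 of the 58 genes that rose more than 2-fold and in all 14 measured goblet cell genes. In the buffer group, animal 8 was the highest of the 8 in 40 of those genes, and animal 2 was the lowest in 29. Muscle genes were high in buffer animal 7, with skeletal muscle actin (Acta1) at 13.18 against 7.55 or less in the other buffer lungs.

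The difference between 1500 ng TSLP and buffer was wide and mostly small. Of all genes tested, 2829 rose (21%) and 2362 fell (17.5%), while 58 rose and 31 fell more than 2-fold, and the median over all genes was 0.01. In 612 genes (4.54%) all 7 TSLP arrays lay above all 8 buffer arrays, and in 571 (4.23%) all lay below. Against the saline lungs in place of buffer, 2138 rose (15.8%) and 1796 fell (13.3%), but 4 rose and 14 fell more than 2-fold. The counts of list members below are to be read against these shares.

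**Figure D1:**
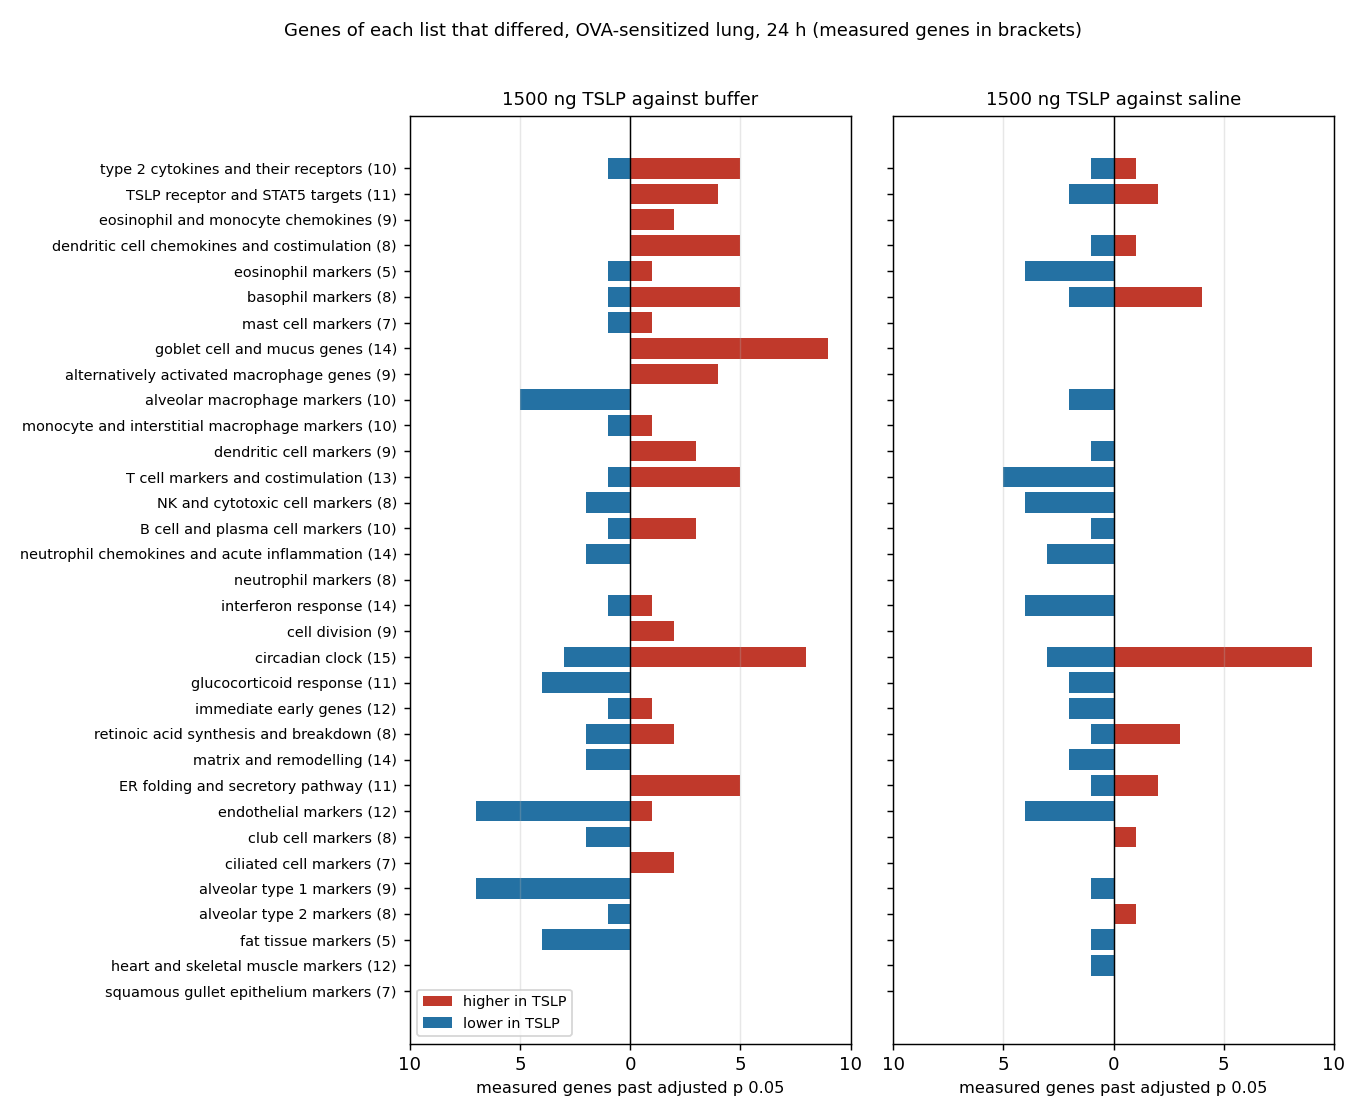
Number of measured genes of each list (list size in brackets) that were higher (right, red) or lower (left, blue) in the 1500 ng TSLP lungs, against buffer (left panel) and against saline (right panel), at an adjusted p under 0.05. Of the 14 goblet cell genes 9 were higher than in buffer and 0 than in saline, while the clock genes gave 8 higher and 3 lower against buffer and 9 higher and 3 lower against saline.

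Genes of the goblet cell list were among the largest rises. Retnlb, which encodes the goblet cell protein RELM-beta, ran from 6.71 to 12.05 with a median of 11.05 in the TSLP lungs and from 6.41 to 10.33 with a median of 8.03 in the buffer lungs. It rose by 2.32 (SE 0.51), 4.99-fold, with an adjusted p of 0.000148, and by 2.95 without animal 1. In 6 of the 7 TSLP lungs it lay above every buffer lung, and animal 1 lay low in the buffer range. Fxyd4, a regulator of the sodium pump, ran from 9.38 to 12.73 with a median of 12.16 under TSLP and from 7.67 to 11.91 with a median of 9.74 under buffer (difference 2.08, SE 0.44, adjusted p 8.56e-05). Capn9 ran from 7.85 to 10.90 with a median of 10.39 under TSLP and from 7.22 to 9.39 with a median of 8.15 under buffer (difference 1.91, SE 0.36, adjusted p 1.3e-05). In both genes the same pattern held, with 6 of 7 TSLP lungs above all buffer lungs.

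Also among the 15 largest rises were Lemd1, a LEM domain gene (1.93), Corin, a membrane serine protease best known from the heart (1.75), Sox9, a transcription factor of airway progenitors (1.60), and Scin, the actin-severing protein scinderin (1.59). So were Duoxa1, the maturation factor of the peroxide-making enzyme DUOX1 (1.57), Guca2a, the gut peptide guanylin (1.48), Slc13a5, a citrate carrier (1.45), and Slc5a1, a sodium-glucose carrier (1.43). Slc13a5 was the one of these 8 without overlap: it lay between 6.70 and 8.07 with a median of 7.26 in the TSLP lungs, against 5.40 to 6.57 with a median of 5.84 in the buffer lungs (adjusted p 7.66e-07). It was also called against saline (0.97, adjusted p 0.00134), whereas Retnlb (0.52, adjusted p 0.5), Fxyd4 (0.62, adjusted p 0.32) and Capn9 (0.82, adjusted p 0.0861) were not.

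Of the 14 measured goblet cell and mucus genes 9 rose and none fell, with a median difference of 1.07 against 0.01 over all genes. When any 1 array was left out 8 to 11 rose, with 11 without TSLP animal 1. Retnlb, Fxyd4 and Capn9 belong to this list. Foxa3, a transcription factor of goblet cell differentiation, averaged 8.29 ± 0.61 in the TSLP lungs and 7.20 ± 0.39 in the buffer lungs (SD, n = 7 and 8), a rise of 1.08 (SE 0.21, adjusted p 1.99e-05). Spdef, which drives mucus cell fate, rose by 1.06 (SE 0.22, adjusted p 6.24e-05). Muc5ac, the main mucin of induced airway mucus, ran from 8.20 to 11.84 with a median of 10.61 under TSLP and from 8.19 to 10.69 with a median of 9.47 under buffer (a rise of 1.18, SE 0.34, adjusted p 0.00366). The Muc5ac call ended in a fit of the groups compared alone. Clca1, a secreted goblet cell protease, was near the top of the scale in both groups, at 13.19 to 14.10 against 13.20 to 13.95 (difference 0.22, adjusted p 0.816). Against saline no gene of the 14 was called, and their median was 0.26.

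**Figure D2:**
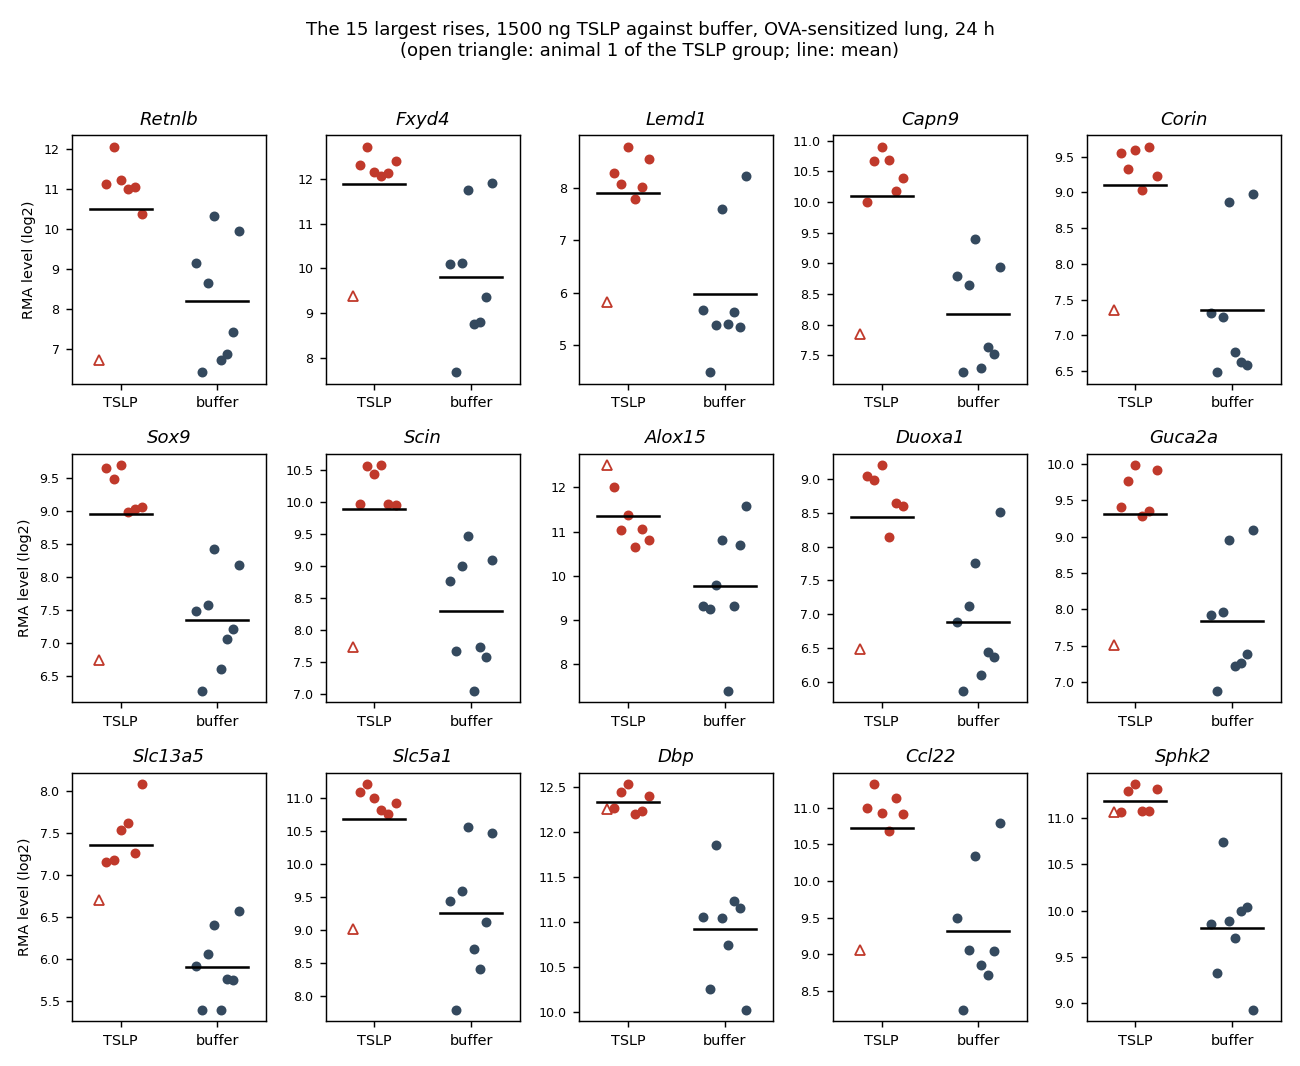
RMA level (log2) of the 15 largest rises in each animal, with the 7 lungs given 1500 ng TSLP (red) left of the 8 given buffer (dark) and lines at the group means. Animal 1 of the TSLP group (open triangle) sits in the buffer range for Retnlb (6.71) and many others but is highest for Alox15, and all 7 TSLP lungs lie above buffer for Slc13a5, Dbp and Sphk2.

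Type 2 cytokines rose too. Il13 ran from 7.03 to 9.32 with a median of 8.81 in the TSLP lungs and from 6.36 to 8.75 with a median of 7.19 in the buffer lungs, a rise of 1.24 (SE 0.31, adjusted p 0.000925). Il5 rose by 1.07 (SE 0.27, adjusted p 0.000739) and was above the buffer mean in 7 of 7 lungs. Il4 ran from 5.61 to 7.10 against 5.80 to 6.86 (difference 0.23, adjusted p 0.34). Of the 10 measured cytokines, receptors and transcription factors of the list 5 rose and 1 fell, whichever array was left out. The decoy receptor Il13ra2 rose by 1.13 (adjusted p 0.000644) and Il17rb, a chain of the IL-25 receptor, by 0.84 (adjusted p 2.04e-05), while the signalling chain Il13ra1 fell by 0.33 (adjusted p 0.00415). The Il13ra1 call ended with the mean of its probe sets, which differed in sign (-0.33, 0.25, -0.77 and 0.05). Against saline Il13 differed by 0.29 (adjusted p 0.544) and Il5 by 0.26 (adjusted p 0.529), neither called. Il13ra2 and Il17rb were not called against saline either. The epithelial alarmins Il33 (difference 0.29, adjusted p 0.0601, and 0.00995 without animal 1) and Tslp itself (0.05, adjusted p 0.751) were not called.

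Both chains of the TSLP receptor were measured. Il7r ran from 10.35 to 11.46 in the TSLP lungs and from 10.21 to 11.46 in the buffer lungs (difference 0.13, adjusted p 0.509), and was lower than in saline by 0.48 (adjusted p 0.0107). Crlf2 rose by 0.16 (adjusted p 0.0448), a call that ended on leaving out any of 10 single arrays, with an adjusted p of 0.134 without animal 1. Of the 11 genes of the receptor and its STAT5 targets 4 rose and none fell against buffer, and 2 rose and 2 fell against saline. Cish, a STAT5-induced inhibitor of cytokine signalling, ran from 10.37 to 11.50 with a median of 11.19 under TSLP and from 9.81 to 11.20 with a median of 10.47 under buffer (a rise of 0.61, SE 0.15, adjusted p 0.000578). Cish was not called against saline. The related inhibitor Socs2 rose by 0.45 (SE 0.11, adjusted p 0.000673) and by 0.52 against saline (adjusted p 0.000203). Osm, the cytokine oncostatin M, rose by 0.56 (adjusted p 0.000227) and by 0.40 against saline (adjusted p 0.0141).

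Genes of the list of dendritic cell chemokines and costimulation rose against buffer. Ccl22, a ligand of the receptor CCR4 on type 2 helper T cells, ran from 9.05 to 11.33 with a median of 10.93 in the TSLP lungs and from 8.24 to 10.80 with a median of 9.04 in the buffer lungs (a rise of 1.41, SE 0.31, adjusted p 0.000154). Ccl17, the other CCR4 ligand, rose by 1.20 (SE 0.32, adjusted p 0.00137). Of the 8 measured genes of this list 5 rose and none fell, whichever array was left out. The others were Cd40, which receives T cell help (0.48, adjusted p 6.41e-06), Cd86, a costimulatory ligand (0.57, adjusted p 0.000115), and Pdcd1lg2, the ligand PD-L2 (1.25, adjusted p 0.00112). Against saline 1 of the 8 was higher, Cd40 (0.24, adjusted p 0.0328), and 1 was lower. Ccl22 (0.17, adjusted p 0.746), Ccl17 (0.21, adjusted p 0.679), Pdcd1lg2 (-0.05, adjusted p 0.939) and Cd86 were not called against saline. Of 9 dendritic cell markers 3 rose, the integrin Itgax by 0.51 (adjusted p 0.00474), the MHC class II chain H2-Ab1 by 0.17 (adjusted p 0.0131) and the class II transactivator Ciita by 0.37 (adjusted p 0.018), and 0 rose with the fat marker level of each array (given below) as a covariate. Against saline 0 of the 9 rose and 1 fell.

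Of 9 chemokines for eosinophils and monocytes 2 rose, both eotaxins. Ccl24, eotaxin-2, ran from 9.47 to 10.74 with a median of 10.08 under TSLP and from 7.89 to 10.28 with a median of 8.54 under buffer (a rise of 1.32, SE 0.38, adjusted p 0.00306). Ccl11, eotaxin-1, rose by 1.08 (SE 0.32, adjusted p 0.00525). Animal 1 had 9.80 of it, against 11.73 or more in the other TSLP lungs. Against saline neither was called (0.13 for Ccl24 and -0.05 for Ccl11, adjusted p 0.852 and 0.929).

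Of the 5 measured eosinophil markers 1 rose and 1 fell. Siglecf, a lectin of eosinophils and alveolar macrophages, ran from 8.33 to 9.61 with a median of 8.87 in the TSLP lungs and from 9.58 to 10.02 with a median of 9.89 in the buffer lungs. It fell by 0.99 (SE 0.17, adjusted p 2.31e-06), with 6 of 7 lungs below every buffer lung. Prg2, eosinophil major basic protein, ran from 6.21 to 7.32 against 5.07 to 7.80 (difference 0.46, adjusted p 0.244), Epx, eosinophil peroxidase, differed by 0.28 (adjusted p 0.525) and the eotaxin receptor Ccr3 by -0.30 (adjusted p 0.46). The 1 marker of 5 that rose was Alox15, a lipoxygenase also made by macrophages and epithelium, by 1.58 (SE 0.47, adjusted p 0.00445). Against saline 4 of the 5 fell: Ccr3 by 1.86 (adjusted p 1.76e-06), Epx by 1.27 (adjusted p 0.00215), Siglecf by 1.25 (adjusted p 5.64e-08) and Prg2 by 1.03 (adjusted p 0.00929). In whole lung, fewer cells of a type and less RNA per cell cannot be told apart, here and for every marker list.

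More basophil markers were higher than lower against both controls. Of 8, 5 were higher and 1 lower against buffer, and 4 higher and 2 lower against saline. Cd200r3 (0.49) and Enpp3 (-0.24) of this list were not called against buffer, and another probe set of Enpp3 gave -0.53. Mcpt8, the protease that defines mouse basophils, ran from 7.84 to 9.43 with a median of 9.13 in the TSLP lungs and from 7.12 to 8.32 with a median of 8.17 in the buffer lungs, a rise of 0.87 (SE 0.22, adjusted p 0.000765), and of 0.71 against saline (adjusted p 0.0107). In 6 of 7 TSLP lungs it lay above every buffer lung. Ms4a2, the beta chain of the high-affinity IgE receptor, rose by 0.79 (SE 0.19, adjusted p 0.000368) and by 0.79 against saline (adjusted p 0.000917). Cyp11a1, an enzyme of steroid synthesis, rose by 0.82 (SE 0.17, adjusted p 7.2e-05), while its other probe set differed by 0.23. The one that fell against buffer was Gata2, a transcription factor that endothelium carries too (-0.37, adjusted p 0.00301). The Gata2 call ended with the fat covariate and in a fit of the groups compared alone. Among 7 mast cell markers, Mcpt4 of connective tissue mast cells fell by 0.93 (SE 0.20, adjusted p 0.000102), a call that ended with the fat covariate. Mcpt1 of mucosal mast cells rose by 0.91 (adjusted p 0.0166), a call that ended without buffer animal 2 (adjusted p 0.073) or TSLP animal 4 (adjusted p 0.0558). It also ended in a fit of the groups compared alone. Against saline 0 of the 7 mast cell markers were called.

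Of 9 macrophage genes of alternative activation 4 rose and none fell against buffer, 2 rose with the fat covariate, and 0 were called against saline. Beside Ccl22 these were Egr2, a transcription factor induced by IL-4 (0.69, adjusted p 0.00288), the lectin Mgl2 (0.72, adjusted p 0.00365) and the chitinase-like Chil4. Chil4 had 9.58 in animal 1 and 13.09 or more in the other TSLP lungs, and its rise of 1.28 (adjusted p 0.0496) lost its call without any of 10 arrays, while without animal 1 it was 1.83 (adjusted p 0.004). Its near-identical neighbour Chil3, whose probes may share signal with it, differed by 0.08 (adjusted p 0.662). Chil3 was near the top of the scale in both groups, with means of 14.02 and 13.94, so that a rise may not be measurable. Of 10 alveolar macrophage markers 5 fell and none rose against buffer (3 to 6 fell when any 1 array was left out, with 3 without buffer animal 6), and 2 fell with the fat covariate and 2 against saline. Abcg1, a cholesterol exporter, ran from 11.21 to 12.07 with a median of 11.42 under TSLP and from 11.87 to 12.28 with a median of 12.18 under buffer (it fell by 0.62, SE 0.12, adjusted p 1.87e-05), and it fell by 0.57 against saline (adjusted p 0.000196). Atp6v0d2, a proton pump subunit, fell by 0.56 (adjusted p 0.000167), and Lpl, lipoprotein lipase, by 0.20 (adjusted p 0.00324). The scavenger receptor Marco fell by 0.47 (adjusted p 0.0238, and 0.0841 without buffer animal 6), and differed by 0.03 against saline (adjusted p 0.921). Fcgr1, the high-affinity IgG receptor of monocytes and macrophages, fell by 0.65 (SE 0.15, adjusted p 0.000333).

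Counts of lymphocyte genes moved with single animals. Of 13 T cell genes 5 rose and 1 fell, with 3 to 6 rising when any 1 array was left out (3 without TSLP animal 4, 6 or 8 or buffer animal 2, 3 or 6) and 1 with the fat covariate. They included Il2ra, the IL-2 receptor chain of activated and regulatory T cells (0.67, adjusted p 0.00154), the costimulator Icos (0.71, adjusted p 0.00395) and Foxp3, the transcription factor of regulatory T cells (0.41, adjusted p 0.00873). Against saline 0 rose and 5 fell. Of 8 killer cell genes 2 fell, perforin (Prf1) by 0.25 (adjusted p 0.0118) and granzyme B (Gzmb) by 0.46 (adjusted p 0.0196), with 6 falling without buffer animal 2, 3 without TSLP animal 5 or 6 or buffer animal 3 or 4, and 1 without TSLP animal 3 or buffer animal 5. The Gzmb call ended without buffer animal 5 (adjusted p 0.0779) or TSLP animal 3 (adjusted p 0.0589), and the Prf1 call with the beta-actin index as a covariate. Against saline 4 of the 8 killer cell genes fell and 0 rose, with Gzmb not called. Of 10 B and plasma cell genes 3 rose (5 without buffer animal 8, 0 without TSLP animal 3 or buffer animal 2 or 5, and 1 to 3 without any other) and 1 fell, syndecan-1 (Sdc1), which epithelium carries too, by 0.26 (adjusted p 0.000945).

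Among genes of acute inflammation 2 of 14 fell and none rose. Il1b, interleukin-1 beta, ran from 10.15 to 11.05 with a median of 10.60 in the TSLP lungs and from 10.64 to 11.91 with a median of 11.52 in the buffer lungs. It fell by 0.81 (SE 0.22, adjusted p 0.00203) and by 0.94 against saline (adjusted p 0.000773). Il1rn, its natural antagonist, fell by 0.83 (adjusted p 0.0182). The Il1rn call ended with the fat covariate and with the beta-actin index as a covariate. No neutrophil marker of 8 was called, with S100a8, a calgranulin, at 12.35 to 12.86 against 11.67 to 13.11 (difference -0.16, adjusted p 0.414). Of 14 interferon-induced genes 0 rose and 4 fell against saline. Against buffer 1 rose and 1 fell, and 0 rose with the beta-actin or the fat covariate or without some single arrays. The gene that fell was Ifit2, which lay between 9.32 and 9.86 with a median of 9.47 in the TSLP lungs and between 9.99 and 10.22 with a median of 10.13 in the buffer lungs. The groups did not overlap (it fell by 0.62, SE 0.12, adjusted p 2.64e-05, and by 0.61 against saline, adjusted p 8.37e-05).

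The circadian clock was the list with the most genes without overlap between the groups, 5 of 15 (2 higher and 3 lower). The clock is a loop in which CLOCK, NPAS2 and BMAL1 (Arntl) switch on the Per, Cry and Rev-erb (Nr1d) genes and the factors Dbp, Tef and Hlf, whose products act on the loop and on output genes. Of the 15, 8 rose and 3 fell (7 to 9 and 3 to 4 when any 1 array was left out), and 9 rose and 3 fell against saline. Dbp lay between 12.20 and 12.53 with a median of 12.26 in the TSLP lungs and between 10.03 and 11.85 with a median of 11.04 in the buffer lungs (a rise of 1.41, SE 0.20, adjusted p 2.97e-08, and of 1.16 against saline, adjusted p 7.09e-06). Arntl lay between 7.88 and 8.47 with a median of 8.24 under TSLP and between 8.90 and 10.01 with a median of 9.58 under buffer (it fell by 1.33, SE 0.17, adjusted p 3.27e-09). Tef rose by 0.73 (adjusted p 1.68e-08), Npas2 fell by 1.44 (adjusted p 6.57e-08) and Clock fell by 0.42 (adjusted p 1.36e-05), each without overlap. Per3 rose by 0.67 (adjusted p 7.55e-05), Per2 by 0.90 (adjusted p 0.000461) and Nr1d1 by 0.55 (adjusted p 0.00764). The hour at which each group was sampled is not in the labels, so hour of day and treatment cannot be told apart.

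**Figure D3:**
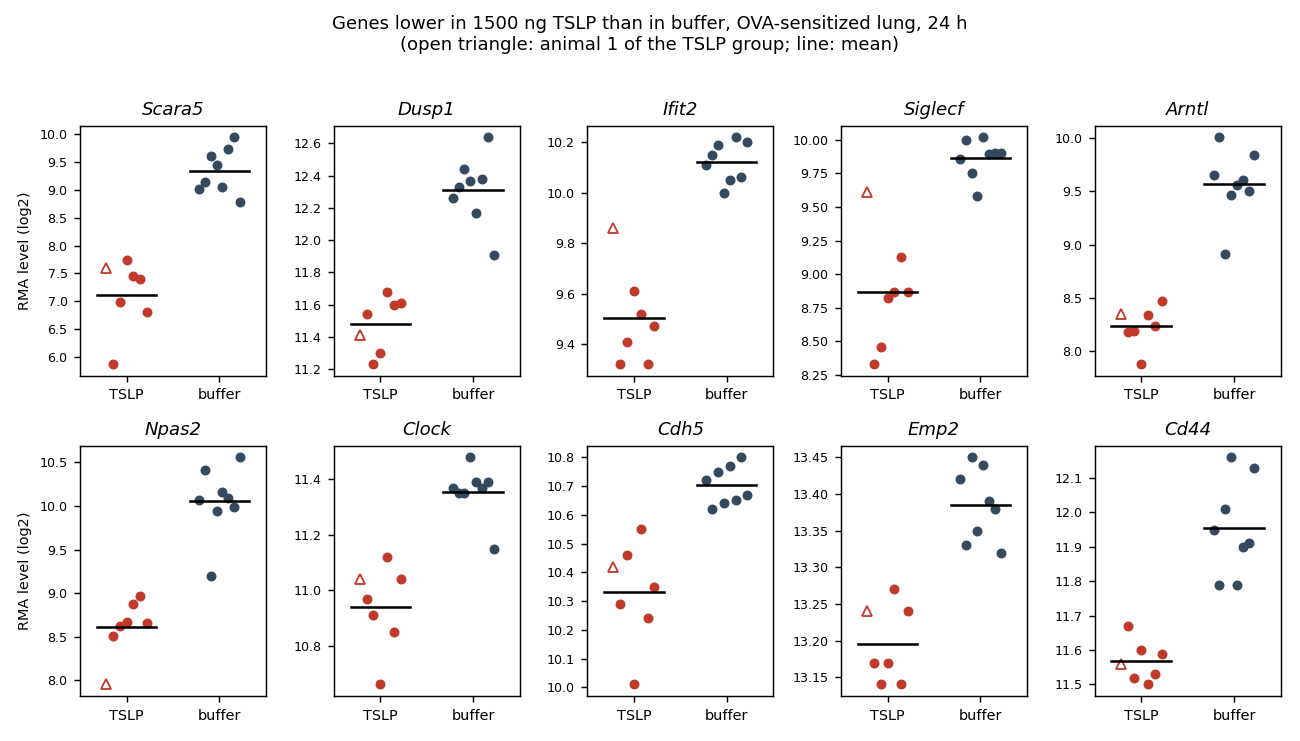
RMA level (log2) of 10 genes that were lower after 1500 ng TSLP, in each of the 7 TSLP lungs (red, left) and 8 buffer lungs (dark, right), with lines at the group means. The groups overlap in Siglecf alone of the 10, where 1 TSLP lung (9.61) reaches the buffer range.

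Of 11 glucocorticoid-induced genes 4 fell and none rose, whichever array was left out. Against saline 2 fell and none rose. Dusp1, a phosphatase that shuts off MAP kinases, lay between 11.23 and 11.68 with a median of 11.54 in the TSLP lungs and between 11.91 and 12.64 with a median of 12.35 in the buffer lungs (it fell by 0.83, SE 0.12, adjusted p 2.01e-08, and by 0.80 against saline, adjusted p 2.38e-07). Sgk1, a kinase of ion transport, fell by 0.37 (adjusted p 0.0011), Pdk4, a brake on glucose oxidation, by 0.79 (adjusted p 0.00823) and the cell cycle inhibitor Cdkn1a by 0.34 (adjusted p 0.00838). Pdk4 and Cdkn1a were not called against saline, nor was Pdk4 with the fat covariate. Of 12 immediate early genes the stress-induced factor Atf3 rose by 0.60 (adjusted p 0.00205) and Jun fell by 0.23 (adjusted p 0.00173). Of 8 retinoic acid genes 2 rose and 2 fell: Aldh1a2, which makes retinoic acid, rose by 0.63 (adjusted p 0.000794), while Dhrs3, a retinaldehyde reductase, fell by 0.28 (adjusted p 0.00523) and the receptor Rarb by 0.27 (adjusted p 0.013). With the beta-actin index as a covariate neither of these falls was called (adjusted p 0.0644 and 0.0519).

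Most of the 10 largest falls were in genes of fat or of lipid and sugar metabolism. Adipoq, the fat cell hormone adiponectin, ran from 4.20 to 8.93 with a median of 6.36 in the TSLP lungs and from 6.84 to 12.00 with a median of 10.20 in the buffer lungs (it fell by 3.20, SE 0.74, adjusted p 0.000274). Car3, a carbonic anhydrase of fat and muscle (-2.64), Cidec, a lipid droplet protein (-1.97), and Retn, resistin (-1.86), fell too, so that 4 of the 5 measured fat markers fell. The summed level of the list ran from 9.16 to 12.10 with a median of 10.06 in the TSLP lungs and from 10.55 to 14.32 with a median of 13.01 in the buffer lungs. Tmem45b, a membrane protein gene (-2.57), Cyp2e1, a drug-oxidizing P450 (-2.18), Pck1, of glucose and glycerol synthesis (-1.98), and Orm1, an acute phase protein (-1.53), fell as well. With the mean level of the fat list in each array as a covariate, the calls of Adipoq, Car3, Tmem45b, Cyp2e1, Pck1, Retn and Orm1 ended, and 4037 genes were called in all, against 5191 without it. For Adipoq, Car3, Cidec and Retn that covariate holds the gene itself. Against saline 1 of the 5 fat markers fell, Adipoq by 1.93 (adjusted p 0.0457), and Car3, Cidec, Retn, Tmem45b, Cyp2e1, Pck1 and Orm1 were not called (adjusted p 0.0537 to 0.321). Fat attached to the lung and fat gene expression in it cannot be told apart.

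Scara5 and Fabp1, also among the 10, were called with that covariate too. Scara5, a ferritin receptor of stromal cells, lay between 5.87 and 7.75 with a median of 7.40 in the TSLP lungs and between 8.79 and 9.95 with a median of 9.30 in the buffer lungs, without overlap. It fell by 2.23 (SE 0.31, adjusted p 1.58e-08), by 1.76 against saline (adjusted p 9.86e-06) and by 1.28 with the fat covariate (adjusted p 1.4e-05). Fabp1, a fatty acid-binding protein of liver and gut, averaged 8.48 ± 0.86 under TSLP and 10.35 ± 0.74 under buffer (SD, n = 7 and 8; it fell by 1.87, SE 0.32, adjusted p 1.26e-06, by 1.60 with the fat covariate, adjusted p 0.000121, and by 0.81 against saline, adjusted p 0.0489).

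Markers of resident lung cells shifted by small amounts. Of 12 endothelial markers 7 fell and 1 rose, and 4 fell with the beta-actin index as a covariate. Flt1, VEGF receptor 1, fell by 0.69 (SE 0.13, adjusted p 5.61e-06), Kdr, VEGF receptor 2, by 0.47 (adjusted p 0.000322), the angiopoietin receptor Tek by 0.27 (adjusted p 0.000495) and VE-cadherin (Cdh5) by 0.37 (adjusted p 0.00395). Of 9 alveolar type 1 cell markers 7 fell, by 0.31 or less, against 3 with the beta-actin covariate and 1 against saline. Akap5, a kinase anchor, fell the most (adjusted p 1.91e-05), and Emp2, a membrane protein, lay at 13.14 to 13.27 against 13.32 to 13.45 without overlap (it fell by 0.19, adjusted p 0.000195). Of 8 type 2 cell markers 1 fell, Lpcat1, a surfactant lipid enzyme (-0.17, adjusted p 0.000525).

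Of 11 genes of protein folding in the endoplasmic reticulum 5 rose and none fell, among them Manf by 0.40 (adjusted p 0.00104), Creld2 by 0.41 (adjusted p 0.0026), Pdia6, a disulfide isomerase, by 0.27 (adjusted p 0.00979) and Dnajc3, a co-chaperone, by 0.30 (adjusted p 0.000179), for which the mean of its probe sets gave -0.12. Against saline 2 of the 11 rose and 1 fell, and Creld2 and Pdia6 were not called. The Pdia6 call also ended with the mean of its probe sets. Of 14 matrix genes 2 fell, among them the hyaluronan receptor Cd44, which lay at 11.50 to 11.67 against 11.79 to 12.16 without overlap (it fell by 0.39, adjusted p 0.00961). That call ended with the beta-actin covariate (adjusted p 0.1), with which 0 of the 14 fell, and with the mean of its probe sets (adjusted p 0.143). Of 9 cell division genes 2 rose (5 without buffer animal 8, and 1 or 2 without any other). Of 7 ciliated cell markers 2 were higher (4 without TSLP animal 1, 3 without TSLP animal 2, and 1 without TSLP animal 3, 5 or 8 or buffer animal 5, 7 or 8). Of 8 club cell markers 2 were lower (0 without TSLP animal 2 or buffer animal 2, 6 or 7, 3 without buffer animal 8, and 1 without TSLP animal 3, 4 or 8 or buffer animal 1, 3 or 5). Of 10 monocyte and interstitial macrophage markers 1 was higher (3 without buffer animal 8, and 0 without TSLP animal 2, 3 or 6 or buffer animal 1, 2 or 3) and 1 was lower (3 without TSLP animal 1, and 2 without buffer animal 1, 3 or 4). No measured marker of muscle, squamous epithelium, thymus or red cells was called against buffer. Of the 12 muscle markers 7 were called higher with the fat covariate, and 1 lower against saline.

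Lower doses at 24 h were set against the same 8 buffer lungs, which the 3 comparisons share. At 150 ng 972 genes rose (7.2%) and 440 fell (3.26%), and at 500 ng 1002 rose (7.43%) and 587 fell (4.35%). Both counts leaned on buffer animals: in all, 1412 genes were called at 150 ng, 2341 without animal 8, 590 without animal 2, 630 without animal 3 and 935 without animal 7. At 500 ng 1589 were called, 2639 without animal 8 and 941 without animal 2. Retnlb differed from buffer by 1.91, 1.70 and 2.32 at 150, 500 and 1500 ng, Ccl22 by 1.32, 1.84 and 1.41, and Il13 by 0.96, 1.44 and 1.24, all called. Of the 14 goblet cell genes 5, 8 and 9 rose. Siglecf differed by -0.24, -0.21 and -0.99, not called at the lower doses (adjusted p 0.359 and 0.431). Prg2 was 1.34 higher at 500 ng (adjusted p 0.00248) and differed by 0.88 at 150 ng (adjusted p 0.0428).

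**Figure D4:**
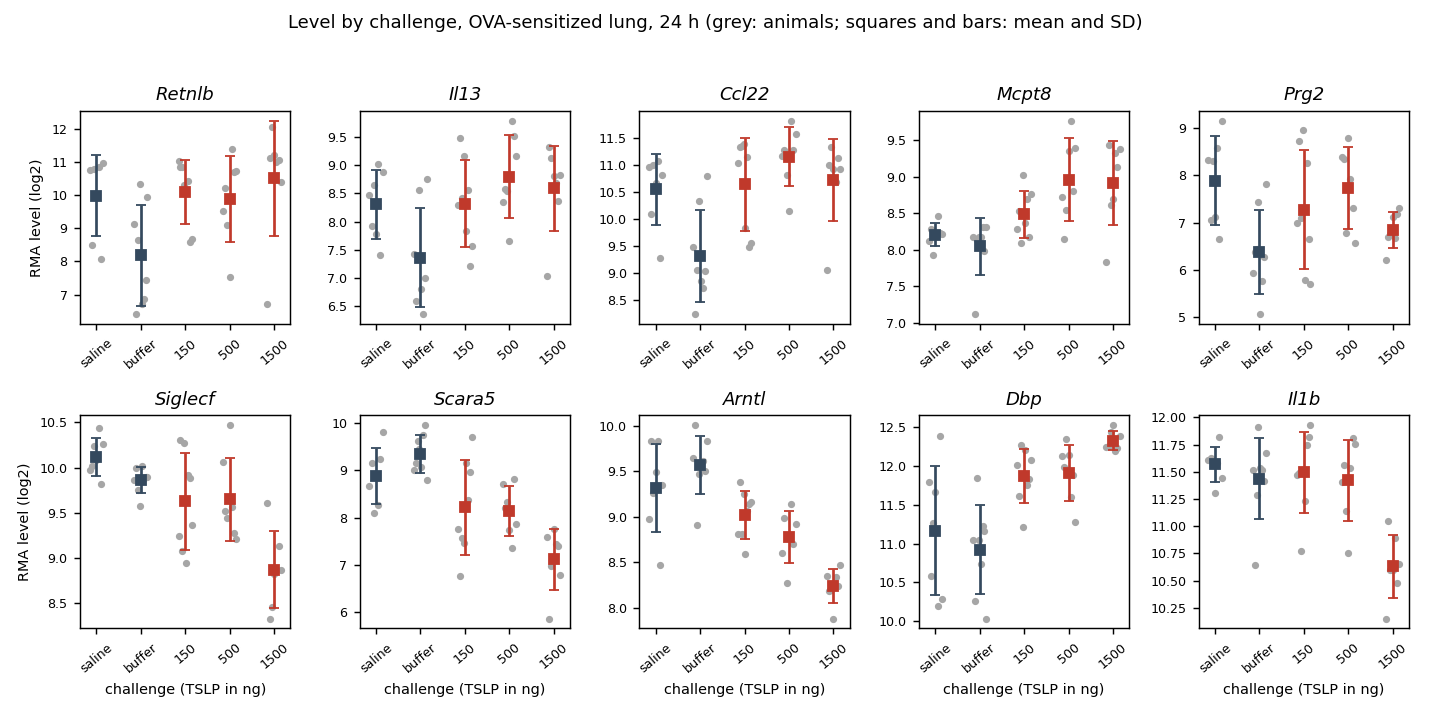
RMA level (log2) of 10 genes in OVA-sensitized lungs at 24 h, by challenge (saline, buffer, then 150, 500 and 1500 ng TSLP), with grey points for animals and squares with bars for the mean and SD. The means of Retnlb, Il13 and Ccl22 are lowest in buffer, while those of Siglecf, Scara5, Arntl and Il1b are lowest, and that of Dbp highest, at 1500 ng.

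A slope over the 3 doses, which leaves the buffer lungs out, was fitted per 10-fold of dose. It was called upward in 946 genes (7.01%) and downward in 1083 (8.03%). Slopes of Retnlb (0.40, adjusted p 0.65), Il13 (0.28, adjusted p 0.584), Ccl22 (0.10, adjusted p 0.875) and Muc5ac (0.16, adjusted p 0.801) were not called. Of the 15 clock genes 4 had an upward and 2 a downward slope, among them Per2 by 0.86 (adjusted p 0.00336) and Tef by 0.46 (adjusted p 0.00102) upward, and Arntl by 0.78 (adjusted p 0.000921) and Npas2 by 0.85 (adjusted p 0.00336) downward, while the slope of Dbp (0.45, adjusted p 0.113) was not called. Downward slopes were also called for Scara5 (-1.08, adjusted p 0.0107), Siglecf (-0.74, adjusted p 0.00152), Dusp1 (-0.54, adjusted p 0.000761), Ifit2 (-0.51, adjusted p 0.0023) and Il1b (-0.85, adjusted p 0.00419). Among the steepest, the secreted protease Adamts20 rose by 0.78 (adjusted p 0.00324), while the glycine receptor chain Glrb fell by 1.20 (adjusted p 0.00127) and the interferon-gamma-induced chemokine Cxcl9 by 1.24 (adjusted p 0.0304). Of 8 killer cell genes 5 had downward slopes, as did 4 of 14 interferon-induced genes.

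Part of the rises differed between OVA-sensitized and naive animals at 24 h. Most genes named here were chosen for the effect in OVA-sensitized animals, which is 1 side of this difference. The difference between the 1500 ng effect in OVA-sensitized and in naive animals was called upward in 259 genes (1.92%) and downward in 337 (2.5%). Capn9 rose by 1.91 in OVA-sensitized animals and differed by -0.03 in naive ones, a difference of 1.94 (adjusted p 0.0173). Lemd1 (2.04, adjusted p 0.0344), Guca2a (1.53, adjusted p 0.0323), Slc5a1 (1.43, adjusted p 0.0257) and Slc13a5 (1.48, adjusted p 0.00694) also had called differences, as had Mug1, a protease inhibitor (1.97, adjusted p 0.0288). With the fat covariate the differences of Capn9, Lemd1, Guca2a, Slc5a1, Slc13a5 and Mug1 were not called. For Retnlb (2.25, adjusted p 0.0518) and Il13 (1.15, adjusted p 0.11) the difference was not called. For Clca1 the difference was -3.07 (adjusted p 0.0341), with 0.22 in OVA-sensitized animals and a rise of 3.29 in naive ones. It was near the top of the scale in both OVA groups, at 13 or more, so that a rise there may not be measurable. Several genes rose or fell in naive animals too, with no call on the difference: Mcpt8 rose by 0.98 (adjusted p of the difference 0.861), Ms4a2 by 0.86 (0.902) and Dbp by 0.97 (0.377), while Arntl fell by 0.79 (0.183).

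Several falls differed between OVA-sensitized and naive animals as well. Scara5 differed by -2.44 (adjusted p 0.000771), with 0.21 in naive lungs (adjusted p 0.79), Siglecf by -1.06 (adjusted p 0.00709), Dusp1 by -0.74 (adjusted p 0.00593) and Ifit2 by -0.69 (adjusted p 0.013). Adipoq differed by -4.18 (adjusted p 0.0117), and in naive lungs it averaged 10.05 ± 0.85 after TSLP and 9.06 ± 1.24 after buffer (SD, n = 8 and 7). With the fat covariate 11 differences were called in all, against 596 without it, among them Siglecf (-1.21, adjusted p 0.018). Scara5, Dusp1, Ifit2, Adipoq and Clca1 were not among the 11. The count was 290 without TSLP animal 3, 366 without TSLP animal 8 and 973 without buffer animal 8.

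**Figure D5:**
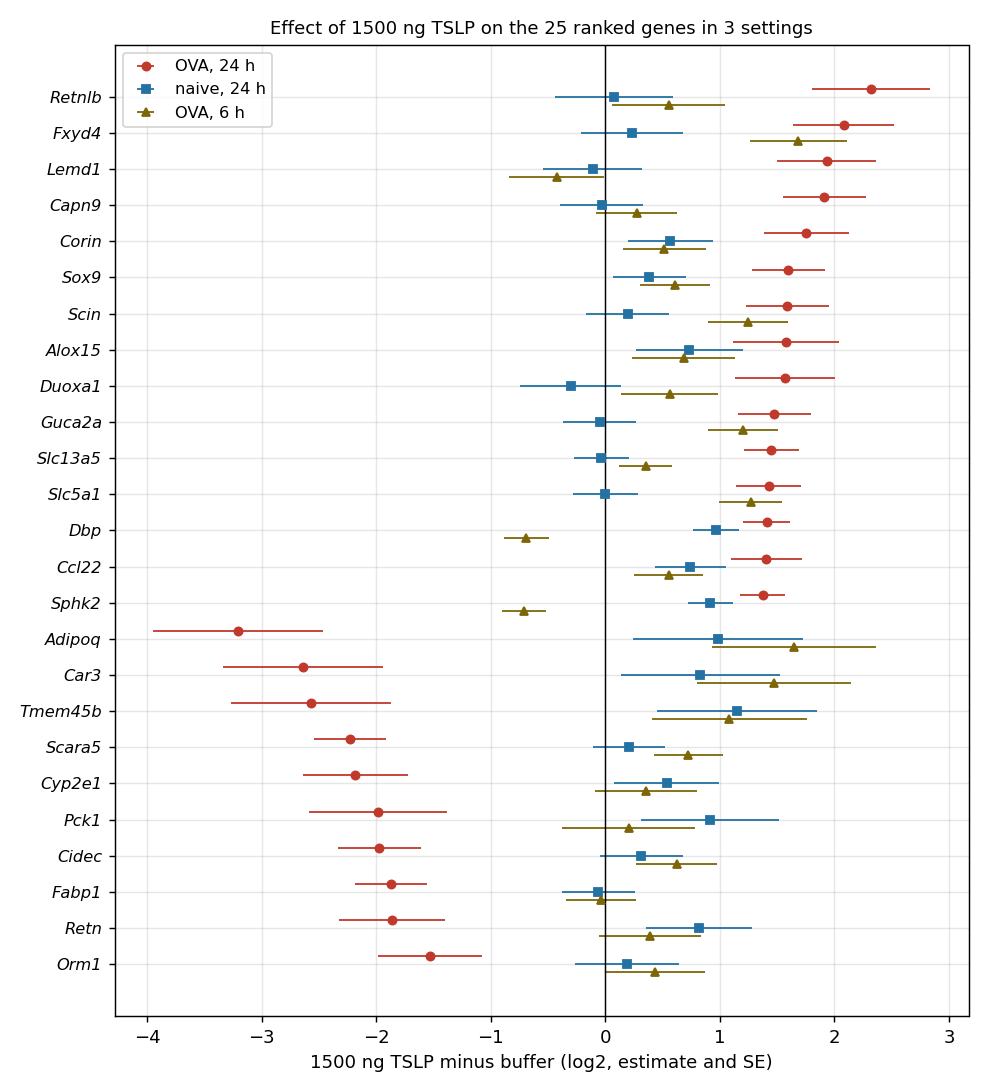
Difference between 1500 ng TSLP and buffer (log2, estimate with SE bars) for the 15 largest rises and 10 largest falls, in OVA-sensitized lungs at 24 h (circles), naive lungs at 24 h (squares) and OVA-sensitized lungs at 6 h (triangles). The genes were chosen on the first of these, in which Retnlb stands at 2.32, against 0.07 in naive lungs and 0.55 at 6 h.

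At 6 h in OVA-sensitized animals the effect of 1500 ng TSLP differed in many genes. The difference between the effects (24 h minus 6 h) was called upward in 4677 genes (34.7%) and downward in 3440 (25.5%). The beta-actin index at 6 h was 1.26 ± 0.12 in the TSLP lungs and 2.58 ± 0.26 in the buffer lungs (SD, n = 8 each), a gap opposite to that at 24 h, and with it as a covariate 3155 differences were called in place of 8117. The differences of single genes given here and below are without that covariate. At 6 h Il13 was higher by 1.69, Il5 by 1.18, Il4 by 0.82, Ccl11 by 2.29 and Mcpt8 by 1.91. Capn9 differed by 1.91 at 24 h and 0.27 at 6 h (difference 1.64, adjusted p 0.00336), and Muc5ac by 1.18 at 24 h and 0.05 at 6 h (difference 1.12, adjusted p 0.0333). Fxyd4 was higher by 1.69 already at 6 h.

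Several genes that fell at 24 h had been higher at 6 h. Il1b stood at -0.81 at 24 h and 1.11 at 6 h (difference -1.92, adjusted p 3.47e-08), and Ifit2 moved alike (difference -1.62, adjusted p 1.04e-14). The same order held for Flt1 (-0.69 and 0.73) and Abcg1 (-0.62 and 0.74). Dbp turned the other way, with 1.41 at 24 h and -0.69 at 6 h (difference 2.10, adjusted p 1.29e-10). Tert, the catalytic chain of telomerase, had 0.86 at 24 h and -1.81 at 6 h (difference 2.67, adjusted p 5.84e-10). Its levels were low, with a mean of 5.28 over all arrays. The 24 h call of Tert ended with the beta-actin covariate and with the fat covariate.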

How the data were processed

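RNA of whole lung was labelled with a 3'IVT Express kit for Affymetrix arrays, per the labels' protocols, with an RNA integrity number above 6 for every sample. The authors deposited log2 values per probe set made with RMA, per the submitters' processing notes; the version is not given in the sources used here. RMA's quantile step brings arrays toward 1 distribution, so changes are relative to the rest of the array, and precision rests on how many arrays a group has. Array medians of the deposited values still ran from 8.97 to 9.16. Of 26166 probe sets, 22892 named 1 gene, 260 several and 3014 none, and each of 13494 genes was given by its probe set with the highest mean.

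Group means were fitted over all arrays of the series (20 groups) with limma 3.58.1 in R 4.3.3, and two-sided p-values were adjusted by Benjamini-Hochberg over all genes at 0.05. The code was tested on simulated data. Named genes were the 15 largest rises and 10 largest falls, up to 4 members with the smallest p per list, a fixed set of type 2 genes, and the leading genes of the other comparisons; some list members with less stable calls appear only in the counts. The genes and lists were chosen with earlier results of these data known. Alternatives were other probe set rules, a filter on dim genes, normalization, prior, array weights, a replicate block, fewer groups, a beta-actin covariate, saline as control and arrays left out. The fat marker covariate, and arrays left out of the other comparisons and of the list counts, were chosen after seeing the data.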

Additional observations from a re-analysis of the deposited data

Results flagged for a closer look

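Single animals lay far from the rest of their group in 42 of 240 pairs of a named gene and a group, by Dixon's test, in which chance marks about 1 in 20. Of these, 25 were low levels of animal 1 of the 1500 ng TSLP group, on the log2 scale: Retnlb 6.71, Fxyd4 9.38, Lemd1 5.82, Capn9 7.85, Corin 7.36, Sox9 6.74, Scin 7.74, Duoxa1 6.48, Guca2a 7.51, Slc5a1 9.01, Ccl22 9.05, Il13 7.03, Il33 11.69, Ccl11 9.80, Ccl17 11.55, Clca1 13.19, Muc5ac 8.20, Cyp11a1 6.96, Mcpt1 4.62, Spdef 7.67, Chil4 9.58, Itgax 11.98, Icos 9.67, Sec1 8.57 and Fam83e 7.62. Many of these are goblet cell, chemokine and type 2 genes, and what set this animal apart was not tested. The other 4 TSLP levels were Tmem45b 7.57 (highest, animal 4), Ccr3 4.68 (lowest, animal 3), Tert 6.79 (highest, animal 4) and Glrb 6.94 (highest, animal 3). In the buffer group there were 13, namely Mcpt8 7.12 (lowest, animal 2), Crlf2 10.70 (highest, animal 8), Cd86 9.44 (highest, animal 8), Ms4a2 5.77 (lowest, animal 2), Npas2 9.20 (lowest, animal 3), Clock 11.15 (lowest, animal 8), Per3 10.11 (lowest, animal 8), Sgk1 12.25 (lowest, animal 2), Rarb 7.54 (lowest, animal 8), Flt1 11.53 (lowest, animal 8), Tek 12.31 (lowest, animal 2), Acta1 13.18 (highest, animal 7) and Mug1 6.93 (highest, animal 4).

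The 1500 ng effect at 24 h differed between OVA-sensitized and naive animals, by the test of the difference (adjusted p under 0.05), in 15 of 41 ranked or fixed genes, against 1.92% called upward and 2.5% downward over all genes. Of the 41, 25 were chosen for the size of the effect in OVA-sensitized animals, which is 1 side of this difference. It was higher in OVA-sensitized animals for Lemd1 2.04, Capn9 1.94, Guca2a 1.53, Slc13a5 1.48 and Slc5a1 1.43, and lower for Adipoq -4.18, Car3 -3.47, Tmem45b -3.73, Scara5 -2.44, Cyp2e1 -2.72, Pck1 -2.90, Cidec -2.29, Fabp1 -1.81, Retn -2.68 and Clca1 -3.07. Clca1 was near the top of the scale in both OVA groups, where a rise may not be measurable. With the fat marker covariate 11 differences were called over all genes, and 0 of these 15 genes were among them.

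Between 24 h and 6 h in OVA-sensitized animals the effect differed in 25 of the same 41 genes, beside 34.7% called upward and 25.5% downward over all genes, a share close to theirs. It was higher at 24 h for Retnlb 1.77, Lemd1 2.36, Capn9 1.64, Corin 1.24, Sox9 0.99, Slc13a5 1.09, Dbp 2.10, Sphk2 2.08, Tslp 0.45, Muc5ac 1.12 and Crlf2 0.28, and lower for Adipoq -4.85, Car3 -4.11, Tmem45b -3.65, Scara5 -2.95, Cyp2e1 -2.54, Pck1 -2.19, Cidec -2.60, Fabp1 -1.83, Retn -2.25, Orm1 -1.97, Il4 -0.59, Il33 -0.47, Ccl11 -1.21 and Mcpt8 -1.04. The beta-actin index of RNA quality moved in opposite directions at the 2 times, and its part was not tested beyond the covariate.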

How the results depend on the processing

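The count of 5191 genes called for 1500 ng TSLP against buffer stayed within 1.5 times under every alternative on the gene level, between 3862 and 6892, and was 9290 of 26166 probe sets taken singly. The 3862 were of the 8096 genes left without the dimmest 40%, while the 5191 were of 13494. The dose slope count (2029) stayed within 1.5 times too, between 1537 and 3027. Other counts moved more. At 150 ng (1412 of 13494 genes) it was 848 of the 8096 genes left without the dimmest 40%. It was 3797 with array weights, 16 in a fit of its own groups, 885 with the fat marker covariate, and 590 to 2341 without single arrays. At 500 ng (1589) it was 358 in a fit of its own groups, 1044 with the fat covariate and 941 to 2639 without single arrays. Differences between OVA-sensitized and naive animals (596) numbered 3385 with array weights, 11 with the fat covariate and 290 to 973 without single arrays, and those between 24 h and 6 h (8117) numbered 3155 with the beta-actin covariate. Of the 848 genes at 150 ng, 835 were also called with all genes kept, so that count fell with the number tested. Why the other counts moved was not tested. Of 120 named genes 107 were called against buffer. Of these, 61 lost the call against saline, 24 with the fat covariate, 10 with the beta-actin covariate, 9 in a fit of the groups compared, 8 with the mean of probe sets, 2 with the replicate block, 1 with a trended prior and 6 without some single array. Calls were gained by Il33 with quantile normalization, array weights, the beta-actin covariate or the dim genes left out, by Prg2 with array weights, and against saline by Ccr3, Cxcl9, Prg2, Epx and Il7r, the last 3 with the sign turned. Signs turned against saline for Il4 -0.15, Ccl11 -0.053, Chil3 -0.045, Prg2 -1.03, Il7r -0.48, Pdcd1lg2 -0.047, Epx -1.27, Chil4 -0.0051, Marco 0.032, Itgax -0.051, H2-Ab1 -0.0042, Icos -0.17 and Atf3 -0.0075, with the fat covariate for Car3 0.098, Tmem45b 0.25, Pck1 0.36, Chil3 -0.017, S100a8 0.018 and Acta1 0.55, with the beta-actin covariate for Tslp -0.025 and Clca1 -0.042, with the mean of probe sets for Dnajc3 -0.12 and Cxcl9 0.036, and without a single array for Tslp -0.0036 and Cxcl9 0.085. Animal numbers did not pair the samples (correlations of same-numbered deviations -0.40 to 0.29), and with the number as a replicate block 5044 genes were called.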

Other observations

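Genes beside Dbp on chromosome 7 were looked at after their values were seen, because Sphk2, which encodes a sphingosine kinase and lies next to it, was also among the largest rises. Sphk2 ran from 11.07 to 11.37 with a median of 11.08 in the 1500 ng TSLP lungs and from 8.93 to 10.74 with a median of 9.88 in the buffer lungs, without overlap (a rise of 1.37, adjusted p 3.89e-08), beside 1.41 for Dbp. On the far side of Dbp, Car11 differed by -0.28 (adjusted p 0.0423, and 0.0891 without buffer animal 3), Ntn5, a netrin gene, by 0.59 (adjusted p 1.08e-07), Sec1, a fucosyltransferase gene, by 1.09 (adjusted p 4.16e-10) and Fut2, its relative, by -0.03 (adjusted p 0.905). Beyond Sphk2, Fam83e differed by 0.63 (adjusted p 0.00498) and Spaca4 by -0.16 (adjusted p 0.0548). Other probe sets gave 0.45 for Sphk2, 0.20 for Sec1 and 1.54 for Dbp. Neighbouring genes thus differed in sign and size, and whether transcripts overlap on the array was not tested.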
